A study of Mus musculus with 32 samples.

Results

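Immediate early genes are the genes a cell switches on first when it is stimulated or stressed, without needing new protein. Their products are mostly transcription factors: FOS and JUN family proteins pair into the AP-1 complex, EGR proteins bind GC-rich promoters, and ATF3 pairs with JUN proteins under stress, while DUSP1 is a phosphatase that removes the activating phosphates from the MAP kinases upstream. The transcripts rise within minutes and decay fast, so enzymatic dispersion and sorting of a tissue can raise them. The 10 studied here were chosen by name: *Fos*, *Fosb*, *Fosl1*, *Jun*, *Junb*, *Egr1*, *Egr3*, *Atf3*, *Ier2* and *Dusp1*. Each matched 1 row, 10 of 22850 genes in all. In mm9, the build of the table, *Fos* lies at chr12:86814840-86818223, *Fosl1* at chr19:5447703-5455945 and *Egr3* at chr14:70477252-70479964 on the plus strand, and *Atf3* at chr1:192994175-193007219 and *Dusp1* at chr17:26642535-26645464 on the minus strand.

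The genes were followed in 32 RNA-sequencing libraries of cells sorted from mouse islets, namely endothelial cells (ECs), macrophages (MΦs) and insulin-producing β cells. All mice carried the MIP-GFP, RIP-rtTA and TetO-VEGF-A transgenes, in which a rat insulin promoter makes β cells express human VEGF-A while doxycycline (Dox) is given, and a mouse insulin promoter drives GFP. The No Dox groups carried the same transgenes without induction, the 1wk Dox groups were sampled during induction, and the 1wk WD groups were sampled 1 week after Dox was withdrawn. The β cells (GFP-positive, out of the cells negative for CD31 and CD11b) had 4 No Dox libraries, 5 from 1wk Dox and 3 from 1wk WD. The ECs (CD31-positive) had 4, 1 and 5 in that order, and the MΦs (CD11b-positive) 4, 2 and 4. A library pooled the islets of several adult mice. All islets were dispersed enzymatically with pipetting, stained and sorted before RNA was taken, so every library went through dissociation and none shows the undisturbed tissue. A level carried over from the islet and a level raised by dissociation therefore cannot be told apart here.

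Values are scores, whole numbers from 1 upward that the authors obtained by normalizing expression, and tests were run with limma on log2(score + 1). To be called, a gene had to differ at least 2-fold and have an adjusted p (Benjamini-Hochberg, over all genes tested) under 0.05. The number of reads behind a score is unknown. Markers followed the labels in most respects: the summed score of 8 endothelial markers was 393853 to 636672 in ECs, at most 4165 in MΦs and at most 55274 in β cells, and that of 9 macrophage markers was 267666 to 450567 in MΦs and at most 7516 in the other cells. The mean log2 level of 9 β cell markers was 12.796 to 16.225 in β cells, and within No Dox it was 16.225 and 16.06 in replicates 1 and 2 but 14.146 and 12.796 in replicates 3 and 4. It was at most 5.797 in ECs and 8.983 in MΦs. Markers of further cell types varied between libraries. The mean log2 level of 8 acinar markers ran from 3.172 to 20.09 in β cells, from 2.492 to 17.096 in ECs and from 5.96 to 19.835 in MΦs. At No Dox it was highest in β replicates 3 and 4 (20.09 and 19.545), MΦ replicates 2 and 4 (19.835 and 17.352) and EC replicate 2 (17.096), so neither the MΦ nor the EC libraries were free of it. The summed score of 8 stromal and pericyte markers ran from 954 to 520610 across No Dox β cells, and No Dox β replicates 3 and 4 were high in these as well. Values without these 2 β libraries are given with the genes whose calls they changed. By the column headers, 28 libraries carry 1 run of library numbers, and a separate run holds the other 4, namely the 1wk Dox EC library, both 1wk Dox MΦ libraries and β 1wk WD replicate 3. For ECs and MΦs, being sampled at 1wk Dox and standing in the separate run cannot be told apart.

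Promoters were looked at first, since shared elements upstream are what these genes are known for. Of the members, 6 had a promoter window in RefSeq, GRCm38.p6, from 250 bases before the start to 50 after it. Only the 250 bases before the start were searched, for the members and for all 32851 windows. Of the 6, 5 held the core of the cAMP response element there, TGACG on either strand, against 17.8% of all windows. The member window without it was that of *Jun*. The full palindrome, TGACGTCA, was in the window of *Dusp1*, against 1.55% of all windows. TATAAA was in that of *Fos*, against 12.4%. No member window held the SRF-binding CArG box (1.47% of all windows) or the AP-1 site TGANTCA (6.75%) in those bases. This says only that these letters are not in the 250 bases searched. The 250 bases upstream are shown for *Fos*, the founding member, and for *Atf3* and *Dusp1*, the 2 members whose smaller fold between MΦs and the other cell types was largest at No Dox, with every TGACG or its reverse complement in capitals. The *Fos* stretch is on the plus strand at chr12:85473640-85473889, *Atf3* on the minus strand at chr1:191183334-191183583 and *Dusp1* on the minus strand at chr17:26508473-26508722.
Fos: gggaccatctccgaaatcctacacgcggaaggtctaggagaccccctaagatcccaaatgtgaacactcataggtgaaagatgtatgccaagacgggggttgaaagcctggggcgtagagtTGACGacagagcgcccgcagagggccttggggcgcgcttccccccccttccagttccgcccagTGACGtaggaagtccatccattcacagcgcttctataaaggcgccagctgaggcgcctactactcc
Atf3: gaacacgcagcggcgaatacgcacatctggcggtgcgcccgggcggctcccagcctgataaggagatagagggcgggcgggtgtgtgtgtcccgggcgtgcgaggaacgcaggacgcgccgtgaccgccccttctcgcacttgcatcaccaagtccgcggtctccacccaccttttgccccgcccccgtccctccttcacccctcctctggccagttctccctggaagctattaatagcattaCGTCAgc
Dusp1: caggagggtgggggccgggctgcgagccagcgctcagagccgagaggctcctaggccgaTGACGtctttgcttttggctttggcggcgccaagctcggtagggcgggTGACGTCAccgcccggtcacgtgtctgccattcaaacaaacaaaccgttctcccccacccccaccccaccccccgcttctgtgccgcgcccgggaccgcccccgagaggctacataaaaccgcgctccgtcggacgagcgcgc
The *Fos* stretch holds 2 such cores, that of *Atf3* holds 1 within 10 bases of the start, and that of *Dusp1* holds 3, of which 2 overlap in the palindrome.

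To compare levels between genes, scores were divided by the length of each gene's exons in kilobases (GENCODE M1, mm9) and ranked among 19739 genes. Per kilobase, 6 members were above the 97th percentile in every library and *Fosl1* was far lower. *Fos* was at the 99.07th to 99.88th percentile in every library, *Egr1* at the 99.61st to 99.95th and *Dusp1* at the 99.18th to 99.97th. *Jun* (98.44th to 99.74th), *Fosb* (98.86th to 99.83rd) and *Atf3* (97.66th to 99.97th) were almost as high. *Fosl1*, which encodes the FOS-related protein FRA-1, was at the 11.85th to 51.99th percentile. *Egr3*, *Ier2* and *Junb* spread more widely, down to the 48.59th, 80.57th and 73.97th percentile, each of these lowest values being in No Dox β cells. The order differed between the cell types. At No Dox the highest mean score per kilobase belonged to *Egr1* in β cells (18089), to *Dusp1* in ECs (16477) and to *Atf3* in MΦs (62498), where *Dusp1* followed at 62177. In MΦs the per-kilobase ranges of *Atf3* (51393 to 73895) and *Dusp1* (45791 to 77097) overlapped, so their order is within the spread. In No Dox ECs those of *Dusp1* (14772 to 17753) and *Egr1* (12756 to 16957) overlapped too. In No Dox β cells *Egr3*, with a mean score of 785.91 per kilobase, had one of the 3 lowest means with *Junb* and *Fosl1*, and it could not be ordered against *Junb* beyond the spread. In No Dox ECs its mean was 11723.

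**Figure D1:**
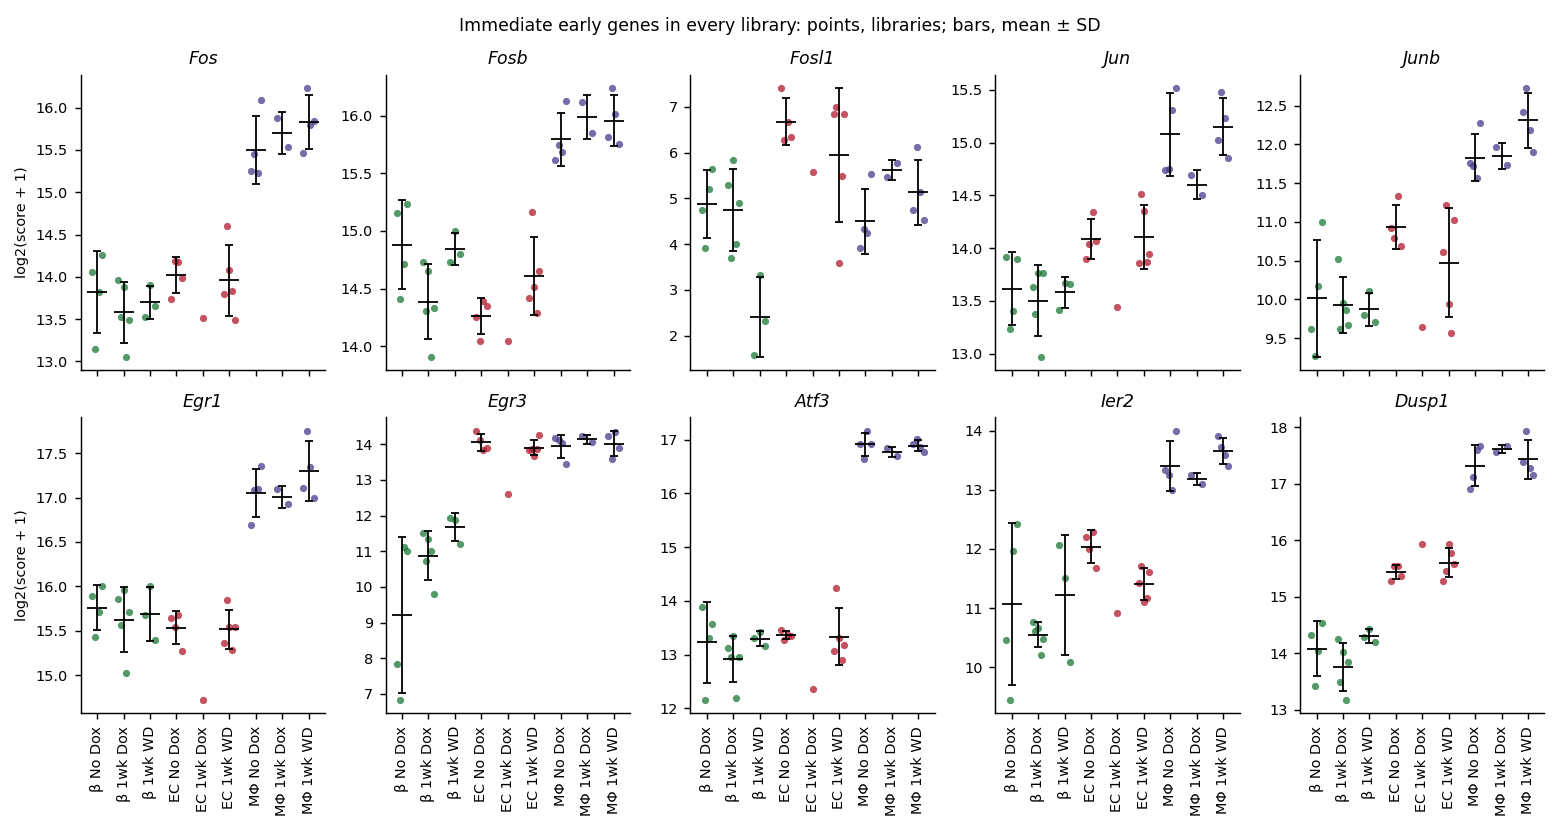
Level of each gene in every library, as log2(score + 1) on the vertical axis (each panel has its own scale that does not start at 0), for β cells (green), ECs (red) and MΦs (purple) at the 3 time points. Points are libraries and bars are the mean ± SD where there are 2 or more; MΦs are highest for most genes, *Egr3* and *Fosl1* being exceptions, and the time points of 1 cell type mostly overlap.

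MΦs held the highest levels of most members. At No Dox, 8 of the 10 were called higher in MΦs than in β cells, where 43.2% of all genes tested were called and 19.7% were called higher. At 1wk WD all 10 were called higher, with 46.2% of genes called and 19.2% called higher. Against ECs, 5 were called higher and 1 lower in MΦs at No Dox (33.5% of genes called, 17.6% higher and 15.9% lower), and 8 higher at 1wk WD (40.3% called, 20.8% higher). The median log2 difference of the 10 members between MΦs and β cells was 1.75 at No Dox and 2.38 at 1wk WD, while over all genes it was -0.12 and -0.14. Counting all time points, every MΦ library was above every β cell and EC library for 7 of the 10 members, as for 9.79% of 16968 genes. A sorted population in which fewer cells express a gene cannot be told apart from one with less RNA per cell. The mean log2 level of 15 heat shock and dissociation stress genes was also high in MΦs, at 11.756 to 12.542, against 10.104 to 11.642 in β cells and 10.928 to 12.180 in ECs, and its part in these differences was not tested. Of the 10 calls against β cells at 1wk WD, that of *Fosl1* was lost with a pseudocount of 20 (log2 1.15, limma adjusted p = 0.062).

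*Atf3*, which is induced by cell stress and by inflammatory signals, was more than 10-fold higher in MΦs than in both other cell types. The 4 No Dox MΦ libraries had scores of 124339, 101964, 146608 and 123077, and the 4 at 1wk WD had 123949, 131286, 119421 and 111162. In No Dox β cells the scores were 15078, 4575, 10145 and 12207, and in No Dox ECs 11235, 9939, 10582 and 10467. β cell and EC libraries overlapped, and the lowest MΦ library was above the highest of both. *Atf3* was 12.8-fold higher in MΦs than in β cells at No Dox (log2 3.68, SE 0.30, limma adjusted p = 1.92e-06) and 12-fold at 1wk WD (log2 3.59, SE 0.25, adjusted p = 1.06e-07). Against ECs it was 11.7-fold higher at both time points, while ECs and β cells differed by a log2 value of 0.13 (SE 0.30, adjusted p = 0.736) at No Dox.

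*Dusp1*, the MAP kinase phosphatase, increased in the order β cells, ECs, MΦs, with no overlap between the cell types over all libraries. Its scores were 20376, 10918, 16886 and 23830 in No Dox β cells, 39841, 47880, 47578 and 42452 in No Dox ECs, and 123498, 141774, 197563 and 207930 in No Dox MΦs. Over all 12 β cell libraries the median was 17792.5, over the 10 EC libraries 47729 and over the 10 MΦ libraries 182216. MΦs were 9.47-fold above β cells at No Dox (log2 3.24, SE 0.26, limma adjusted p = 1.51e-06) and 3.7-fold above ECs (log2 1.89, SE 0.26, adjusted p = 8.34e-05). ECs were 2.56-fold above β cells (log2 1.36, SE 0.26, adjusted p = 0.00102).

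Among the FOS family, *Fos* itself had scores of 39078, 44725, 38210 and 69698 in No Dox MΦs, against 9040 to 19647 in No Dox β cells and 13630 to 18672 in No Dox ECs. MΦs stood apart, and β cells and ECs overlapped. The difference from β cells was 3.21-fold (log2 1.68, SE 0.26, limma adjusted p = 0.000205) and from ECs 2.79-fold. *Fosb*, whose product also pairs with JUN proteins, was 1.89-fold higher in MΦs than in β cells at No Dox, short of the fold threshold, and 2.16-fold at 1wk WD (adjusted p = 0.000335). Without No Dox β replicates 3 and 4 the difference at No Dox passed it (log2 1.01, adjusted p = 0.00246), making 9 members called, with 49.3% of genes called. Against No Dox ECs *Fosb* was 2.89-fold higher in MΦs (log2 1.53, adjusted p = 7.04e-05). *Fosb* had a lower mean in ECs than in β cells at No Dox, by a log2 value of -0.62 (SE 0.20, adjusted p = 0.0257), with no overlap between the groups but under the fold threshold.

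*Fosl1* was the exception in the family, low everywhere and highest in ECs at No Dox. Its scores were 169, 77, 101 and 80 in No Dox ECs, 26, 14, 36 and 49 in No Dox β cells and 14, 19, 18 and 45 in No Dox MΦs. The EC libraries lay above both other groups, which overlapped. ECs were 3.48-fold above β cells at No Dox (log2 1.80, SE 0.53, limma adjusted p = 0.0147), and MΦs were below ECs by a log2 difference of -2.18 (SE 0.53, adjusted p = 0.00537). Without EC replicate 1 the call against β cells was lost (log2 1.55, adjusted p = 0.0511). At 1wk WD the 5 EC libraries scored 114, 127, 11, 44 and 114 and overlapped the MΦs (22 to 69). *Fosl1* overlaps the opposite-strand gene *Ccdc85b* in its exons. *Ccdc85b* scored 696 to 928 in No Dox ECs, 105 to 223 in No Dox β cells and 30 to 163 in No Dox MΦs, and whether the counting used strand is not given in the sources used here, so reads of the 2 genes may not be told apart.

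Both JUN genes were higher in MΦs than in β cells. *Jun*, the main partner of FOS proteins, had a median score of 12801.5 over the β cell libraries, 16276 over the EC libraries and 31497 over the MΦ libraries. It was 2.76-fold higher in MΦs than in β cells at No Dox (log2 1.46, SE 0.22, limma adjusted p = 0.000187) and 2.96-fold at 1wk WD. Against ECs the difference was close to the fold threshold at both time points, 1.99-fold at No Dox and 2.06-fold at 1wk WD, so that the first was not called and the second was. Over all libraries the lowest MΦ score (23216) was under the highest EC score (23310). The call at 1wk WD was lost without EC replicate 1 or 4 or MΦ replicate 2 (log2 0.93 to 0.98). *Junb*, the JUN protein that often restrains JUN, had a median score of 907.5 over the β cell, 1712.5 over the EC and 3919.5 over the MΦ libraries. The ranges of MΦs (3036 to 6779) and of the other cells did not overlap. *Junb* was 3.52-fold higher in MΦs than in β cells at No Dox (log2 1.82, SE 0.32, adjusted p = 0.000554) and 5.41-fold at 1wk WD (log2 2.44, SE 0.35, adjusted p = 5.17e-05). Against ECs it was 1.86-fold higher at No Dox (adjusted p = 0.0425), short of the fold threshold, and 3.57-fold at 1wk WD (adjusted p = 0.000185). Without No Dox MΦ replicates 2 and 4 the adjusted p against No Dox ECs was 0.205.

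The 2 EGR genes parted. *Egr1* had a median score of 53658.5 over β cell libraries and 47727 over EC libraries, with overlapping ranges, and 140041.5 over MΦ libraries, which ranged from 105800 to 220452. MΦs were 2.45-fold above β cells at No Dox (log2 1.30, SE 0.21, limma adjusted p = 0.000239) and 2.87-fold above ECs. *Egr3*, which EGR1 and calcium signals induce and which is known from endothelial responses to VEGF, was instead not called between ECs and MΦs. Its scores were 21226, 17745, 14755 and 15160 in No Dox ECs and 18363, 17655, 16734 and 11246 in No Dox MΦs. No Dox β cells had 229, 113, 2217 and 2059. ECs and MΦs overlapped, with a log2 difference of -0.12 (95% interval -1.88 to 1.64, adjusted p = 0.93) at No Dox and of 0.11 (-0.31 to 0.53, adjusted p = 0.667) at 1wk WD. The No Dox interval rests on a spread shared with β cells, whose log2 SD was 2.189, against 0.2418 in ECs and 0.3265 in MΦs. The No Dox β cell libraries were lower than all EC and MΦ libraries and fell into a low and a high pair. ECs were 29-fold above β cells at No Dox (log2 4.86, SE 0.80, adjusted p = 0.000397) and 4.68-fold at 1wk WD (log2 2.23, SE 0.21, adjusted p = 1.62e-06). The size at No Dox depends on which β cell libraries are taken: without No Dox β replicates 3 and 4 the log2 difference was 6.72 (adjusted p = 2.24e-08).

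*Ier2*, a small nuclear protein induced with the FOS and JUN genes, had scores of 10380, 9732, 8201 and 16315 in No Dox MΦs, 4692, 4102, 5002 and 3264 in No Dox ECs and 1416, 700, 3976 and 5458 in No Dox β cells. The MΦ libraries were above all others, and those of ECs and β cells overlapped. *Ier2* was 5-fold higher in MΦs than in β cells at No Dox (log2 2.32, SE 0.53, limma adjusted p = 0.00289). Against ECs it was not called at No Dox (log2 1.36, adjusted p = 0.0571, and 0.237 without No Dox MΦ replicates 2 and 4). That fit shares its spread with β cells, and with only the 2 groups in the fit *Ier2* was called (limma adjusted p = 0.000421). At 1wk WD it was called against ECs (log2 2.25, adjusted p = 3.17e-05). Between ECs and β cells, 3 members were called at No Dox, namely *Fosl1*, *Egr3* and *Dusp1*, with 37.7% of genes called and 16.5% called higher in ECs. The same 3 were called at 1wk WD, with 39.9% of genes called and 14.8% called higher. Without No Dox β replicates 3 and 4, *Junb* (log2 1.49, adjusted p = 0.000258) and *Ier2* (2.08, adjusted p = 0.000249) were called too, making 5, with 45.4% of genes called.

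**Figure D2:**
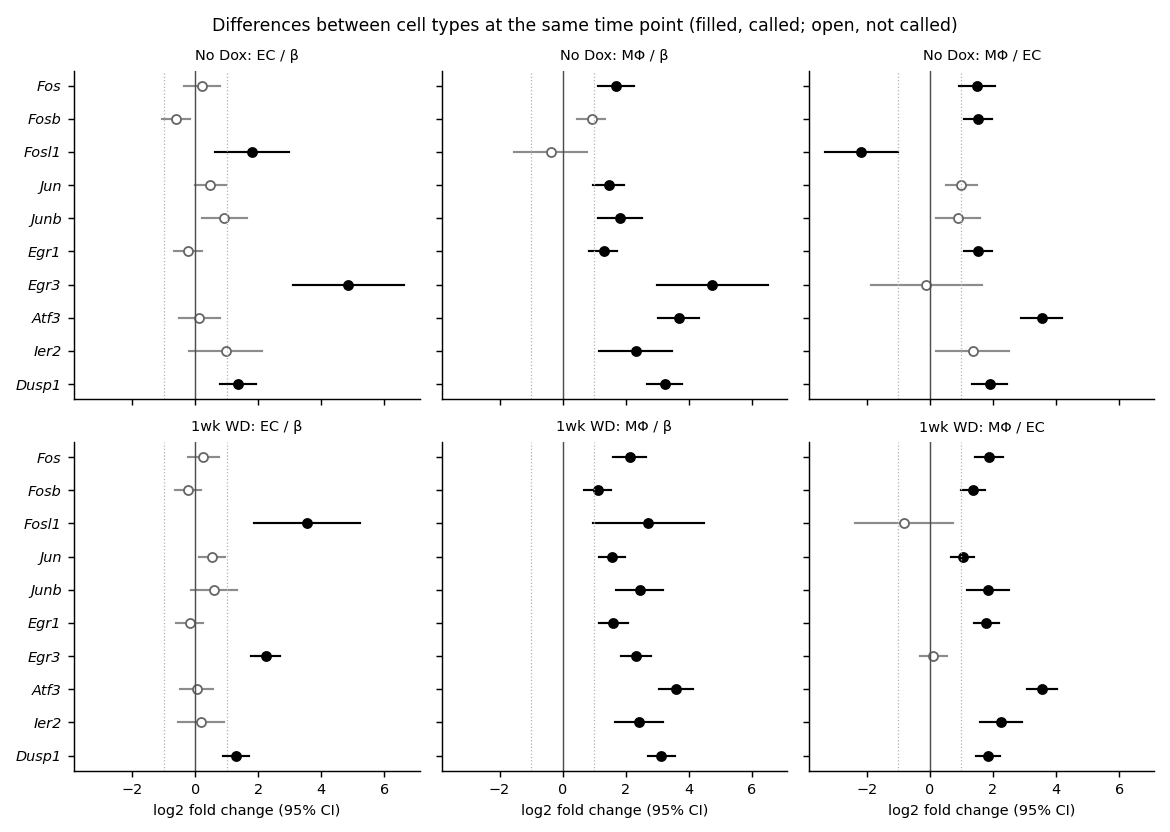
Differences between cell types at No Dox (top) and 1wk WD (bottom), as log2 fold change with its 95% confidence interval on the horizontal axis and 1 row per gene; filled points were called, open points were not, and dotted lines mark a fold of 2. *Atf3* is the furthest to the right in both comparisons of MΦs with ECs, and *Egr3* lies close to 0 there.

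Within a cell type, no member was called between any of the time points. In β cells, comparing 1wk Dox with No Dox, 0 of 10 were called (2 genes of 16346, 0.0122%). Comparing 1wk WD with No Dox gave 0 (0% of genes), as did 1wk WD with 1wk Dox (0%). In ECs 0 were called at 1wk WD against No Dox, with 1.76% of genes called. In MΦs 0 were called for 1wk Dox against No Dox (2.26% of genes), 0 for 1wk WD against No Dox (0.626%) and 0 for 1wk WD against 1wk Dox (0.0866%). At an unadjusted limma p under 0.05 and a fold of 2 or more β cells had 2 members at 1wk WD against No Dox (4.45% of genes) and 1 against 1wk Dox (2.88%), and the other 5 comparisons had 0 (1.82% to 6.55%). The median log2 change of the members at 1wk WD against No Dox was -0.03 for β cells, -0.05 for ECs and 0.20 for MΦs, beside 0.06, 0 and 0 over all genes. For *Fos*, for example, the 95% interval of the log2 change at 1wk WD ran from -0.77 to 0.52 for β cells, from -0.47 to 0.34 for ECs and from -0.14 to 0.80 for MΦs.

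*Egr3* and *Fosl1* were the 2 members past the unadjusted threshold in β cells at 1wk WD. *Egr3* scored 229, 113, 2217 and 2059 at No Dox. At 1wk Dox it scored 2931, 1696, 2587, 2074 and 885, and its 1wk WD scores were 3921, 3765 and 2372. The 1wk WD libraries were above all No Dox libraries, and the lowest of them was close to the highest at No Dox. The log2 change at 1wk WD was 2.48 (SE 0.92, limma adjusted p = 0.596). Without No Dox β replicates 3 and 4 it was 4.34 (adjusted p = 0.00104), and that at 1wk Dox was 3.54 (adjusted p = 0.00129), so that 1 member was then called in each, with 8.74% of genes called at 1wk WD and 7.36% at 1wk Dox. Leaving out 1 of the low libraries moved it the other way, to 2.02 and 1.23 without replicate 1 and to 1.69 and 0.89 without replicate 2 (adjusted p 0.843 to 1), for 1wk WD and 1wk Dox in turn. Without 1wk WD replicate 3, of the separate library-number run, the change at 1wk WD was 2.71 (adjusted p = 0.317). No Dox replicates 1 and 2, in which *Egr3* was low, were also the 2 with the lowest stromal and pericyte marker mean (log2 5.473 and 4.484, against 10.697 to 14.888 in all other β cell libraries). Their endothelial marker means were 7.977 and 7.471, against 7.055 to 12.546 in the 5 β libraries at 1wk Dox, 4 of which were above both, and 8.279 to 10.859 at 1wk WD. *Egr3* is high in ECs. The β cells were sorted as CD31-negative, and the part of stromal or endothelial cells in the result was not tested.

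*Fosl1* scored 26, 14, 36 and 49 in No Dox β cells, 38, 12, 56, 15 and 29 during Dox and 2, 9 and 4 at 1wk WD. The 1wk WD libraries were below all the others, at levels of a few score units. The log2 change against No Dox was -2.47 (SE 0.76, limma adjusted p = 0.561) and against 1wk Dox -2.34 (SE 0.73, adjusted p = 0.643). At these low scores the size rests on the pseudocount, and with one of 20 the changes were -1.0 and -0.94. Without 1wk WD replicate 3 they were -2.43 and -2.29 (adjusted p = 0.302 and 0.354). *Ccdc85b*, the overlapping gene, scored 78 to 323 at 1wk WD and 105 to 223 at No Dox.

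In ECs *Ier2* had an adjusted p under 0.05 with a change smaller than 2-fold. Its scores were 4692, 4102, 5002 and 3264 at No Dox and 2749, 3359, 2202, 2301 and 3126 at 1wk WD, so that only the lowest No Dox library lay within the 1wk WD range. The log2 change was -0.64 (SE 0.16, limma adjusted p = 0.0431). The adjusted p was 0.0661 with no filter on low scores, 0.114 with no variance trend and 0.031 to 0.142 leaving out 1 library at a time. In MΦs the change at 1wk WD against No Dox whose 95% interval excluded 0 was that of *Junb*, from 3456, 3376, 3036 and 4939 at No Dox to 5461, 6779, 4651 and 3833 (log2 0.48, SE 0.19, adjusted p = 0.219), and these groups overlapped. *Jun* scored 26546 and 23216 in the 2 MΦ libraries at 1wk Dox, below the 27338 to 46900 at No Dox, with a log2 change of -0.48 (SE 0.24, adjusted p = 0.284).

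**Figure D3:**
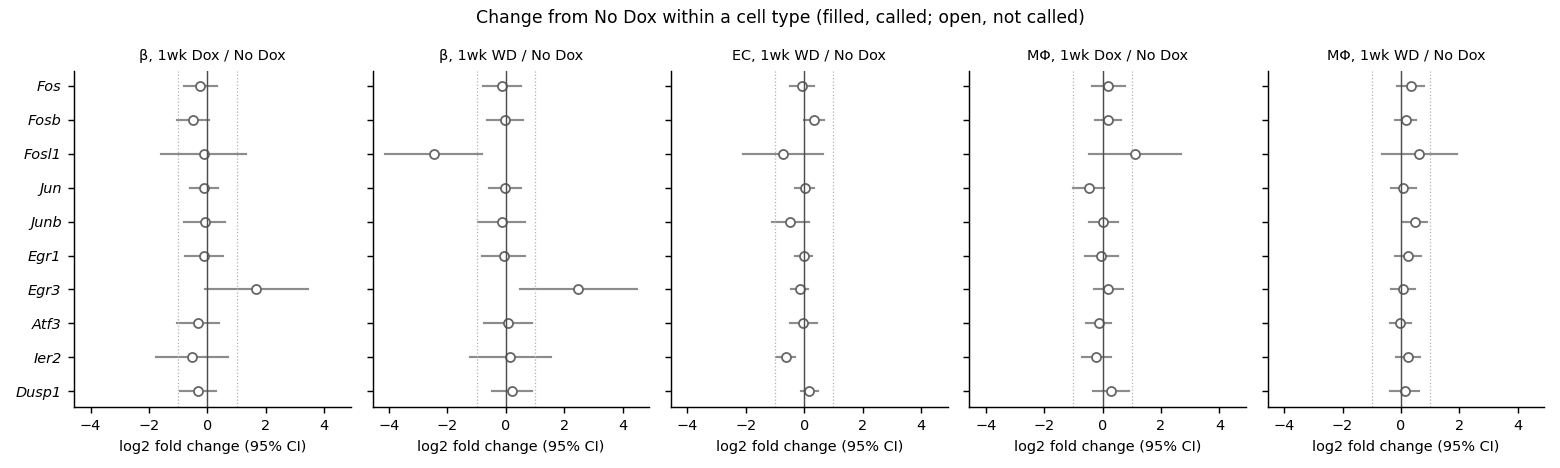
Change from No Dox within each cell type, as log2 fold change with its 95% confidence interval, 1 row per gene; open points were not called, and dotted lines mark a fold of 2. All points are open, and the 2 widest intervals are those of *Egr3* in β cells.

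Whether the change at withdrawal differed between cell types was tested directly, and 0 of 10 members were called in each of the 3 interaction tests. The share of all genes called was 0.368% for ECs minus β cells, 0.0475% for MΦs minus β cells and 0.0356% for MΦs minus ECs. At an unadjusted p under 0.05 and a fold of 2 there was 1 member in the first (*Egr3*), 2 in the second (*Egr3* and *Fosl1*) and 0 in the third, with 8.71%, 7.16% and 5.6% of all genes. The difference of the *Egr3* changes, ECs minus β cells, was -2.63 on the log2 scale (SE 0.88, limma adjusted p = 0.181), and without No Dox β replicates 3 and 4 it was -4.49 (adjusted p = 4.03e-08). *Ier2* was then called in the same test (-1.90, adjusted p = 0.0103), and 16.9% of genes were. For MΦs minus β cells *Egr3* was called as well (-4.26, adjusted p = 1.4e-07), with 14.2% of genes. The 2 No Dox β libraries then left were those with the lowest stromal and pericyte marker mean (5.473 and 4.484), against 10.697 to 14.819 in the 1wk WD β libraries, and the part of those cells in the calls gained was not tested. That of *Fosl1*, MΦs minus β cells, was 3.10 (SE 0.97, adjusted p = 0.217).

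ECs at 1wk Dox were represented by a single library, so its values are given without a test. There 9 of the 10 members were lower than the No Dox mean and 8 lay below the No Dox range, where 26.3% of 14047 genes lay below it and 35.9% above. The median difference of the members was -0.90 on the log2 scale, and 0.06 over all genes. Of the 10 members, 4 were lower by more than 2-fold, where 10.7% of genes were past that fold in either direction. *Egr3* scored 6197, under the 14755 to 21226 of No Dox and the 13092 to 19682 of 1wk WD. *Junb* scored 801, *Ier2* 1937 and *Fosl1* 47, and *Atf3*, with 5278, was at the threshold. Against the 1wk WD range, 6 members were lower, as were 19.6% of genes. *Dusp1* went the other way, with 62591, above all 4 No Dox libraries (39841 to 47880), and *Fosb* was inside the No Dox range with 16941. Its mean over the 15 heat shock and dissociation stress genes was 11.302 on the log2 scale, within the 10.928 to 11.696 of No Dox ECs.

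**Figure D4:**
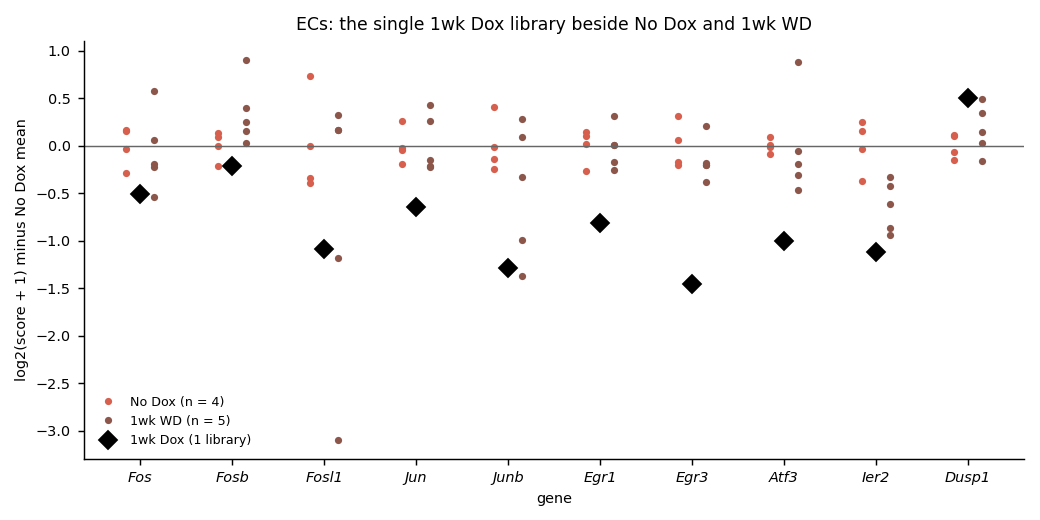
Level of each gene in EC libraries as log2(score + 1) minus the No Dox mean (vertical axis), for No Dox (light red, n = 4), 1wk WD (brown, n = 5) and the single 1wk Dox library (black diamonds). The diamonds lie below 0 for 9 genes and above it for *Dusp1*.

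Libraries of 1 group often differed from each other in the same direction for many members, with exceptions. Taking each library as its deviation from the mean of its group on the log2 scale, the median correlation of the 45 pairs of members was 0.528 over 31 libraries, 0.709 over the 12 β cell libraries, 0.37 over the 9 EC libraries and 0.636 over the 10 MΦ libraries. In β cells all 45 pairs were above 0, in ECs 32 and in MΦs 34. In MΦs *Egr3* was below 0 with all 9 other members (r from -0.795 to -0.113), and in ECs *Dusp1* was below 0 with 7 of 9, down to -0.85 with *Fosl1*. Libraries share normalization and composition, so these are descriptions. The 5 genes most like the members' mean by this measure, of 12141 ranked, were *Zfp36* (r = 0.892), an RNA-decay factor, *Nr4a1* (0.882), a nuclear receptor, *Klf6* (0.856) and *Klf4* (0.846), zinc finger factors, and *Ube2h* (0.832), a ubiquitin-conjugating enzyme. The first 4 stand on the list of other immediate early genes given next.

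The members' mean and the mean over 15 heat shock and dissociation stress genes had their highest library in common in 7 of the 8 groups with 2 or more libraries, and their lowest in 4 of 8. In the group of 2 libraries, 1wk Dox MΦs, a shared highest library also fixes the lowest. How often groups this small share a library by chance was not worked out. Among ECs at 1wk WD, replicate 2 was highest in both, with 13.361 for the members and 12.180 for the heat shock genes on the log2 scale. In that library *Fos* scored 24863 against 11472 to 17364 in the other 4, and *Atf3* 19350 against 7636 to 10138. Among MΦs at 1wk WD it was again replicate 2 (14.681 and 12.542), with *Egr1* at 220452 against 130725 to 166294 in the other 3. Among No Dox β cells, replicate 4 was highest in both (12.758 and 11.348) and replicate 2 lowest (11.125 and 10.104). The stromal and pericyte marker mean was also highest in replicate 4 (14.888) and lowest in replicate 2 (4.484). The part of dissociation and of other cells in these differences was not tested.

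**Figure D5:**
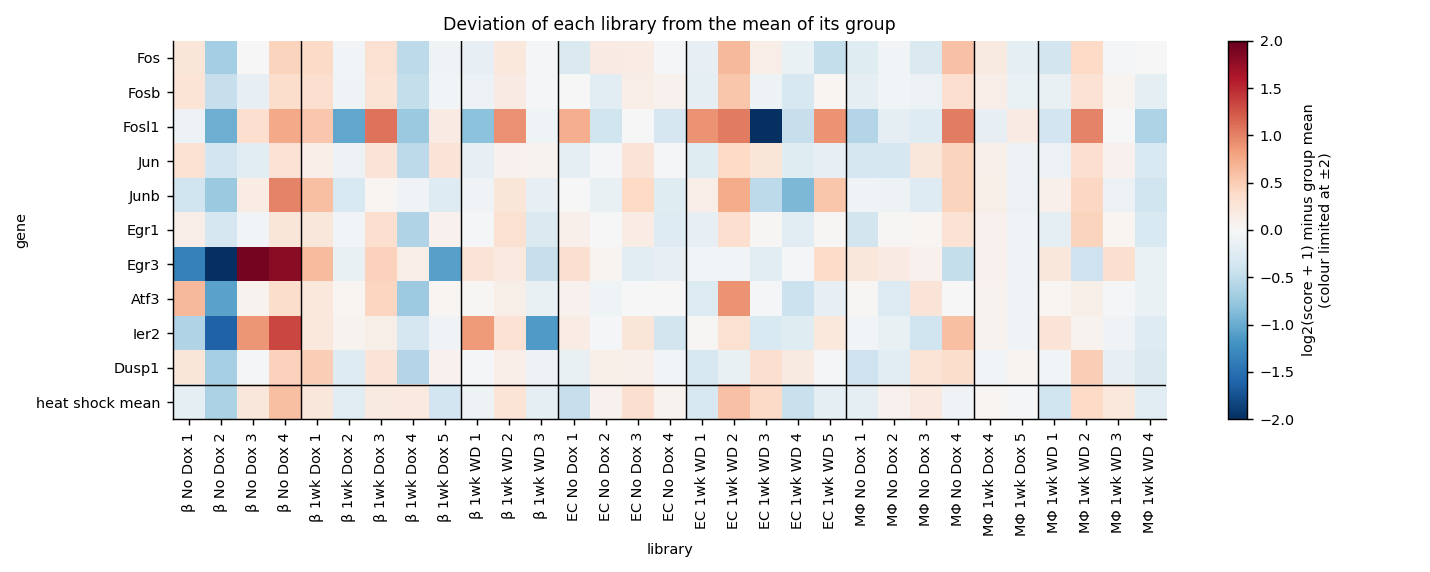
Deviation of each library (columns, grouped by cell type and time point, black lines between groups) from its group mean, on the log2(score + 1) scale, for each gene and for the mean of the 15 heat shock genes (bottom row); red is above and blue below the group mean, with the colour limited at 2 either way. Whole columns tend to share a colour, as for β No Dox 2 and EC 1wk WD 2.

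Further lists of 40, 15, 22 and 12 genes give the surroundings of these genes. Of 40 other immediate early genes, 38 were tested. Within cell types the calls were all in MΦs against No Dox, 1 at 1wk Dox and 2 after withdrawal. Over all genes tested, 2.26% and 0.626% were called in these 2 comparisons. *Ier3*, a stress-induced survival gene, was higher by a log2 value of 1.49 (SE 0.29, limma adjusted p = 0.0171) at 1wk Dox and by 1.47 (SE 0.24, adjusted p = 0.0158) at 1wk WD. *Gadd45b*, a growth arrest and DNA damage gene, was higher by 1.49 (SE 0.28, adjusted p = 0.031) at 1wk WD. Between cell types at No Dox, 25 of the 38 were called higher and 2 lower in MΦs than in β cells, where 43.2% of all genes were called and 19.7% called higher. In ECs against β cells 18 were higher and 2 lower, where 37.7% were called and 16.5% higher. Of the 15 heat shock and dissociation stress genes, *Hmox1*, heme oxygenase 1, was called higher in MΦs at 1wk Dox (log2 2.23, SE 0.21, limma adjusted p = 0.000805). It was called lower at 1wk WD than at 1wk Dox (log2 -1.37, SE 0.21, adjusted p = 0.0359), where 0.0866% of all genes were called. No other of the 15 was called over time. These calls were sensitive to the fit: the *Hmox1* call between 1wk WD and 1wk Dox was lost with no filter (adjusted p = 0.0724), with no variance trend (0.217) and with the replicate block (1), where 0 of all genes were called in the last 2, and it was lost in all 6 fits that left out 1 library. With no trend the calls of *Ier3* (0.0773 and 0.103) and *Gadd45b* (0.119) were lost too. Leaving out 1 library lost that of *Gadd45b* in 5 of 8 fits, that of *Ier3* at 1wk Dox in 2 of 6, without either 1wk Dox library (0.408 and 0.0665), and at 1wk WD in 1 of 8. *Ier3* at 1wk Dox was also lost with the replicate block (0.135) and with the 2 groups fitted alone (0.052), and *Gadd45b* with no filter (0.0572) and with the 2 groups alone (0.0511). The *Hmox1* rise at 1wk Dox was lost without 1wk Dox MΦ replicate 4 (0.0806). In MΦs against β cells at No Dox, 4 of the 15 were called higher and 1 lower. In MΦs against ECs 6 were higher and 2 lower, and in ECs against β cells 4 were higher and 4 lower. The shares of all genes called higher in these 3 comparisons were 19.7%, 17.6% and 16.5%, and the shares called in either direction 43.2%, 33.5% and 37.7%. *Hspa1a* and *Hspa1b*, near-identical genes in that list, can exchange reads.

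The 22 upstream kinases and factors included the ERK, JNK and p38 kinases, SRF, the ELK factors and CREB. By limma, 0 of them were called over time in any cell type. In MΦs against β cells at No Dox 5 were called higher and 2 lower, where 43.2% of all genes were called and 19.7% called higher. Their median log2 difference was 0.17, beside -0.12 over all genes. In MΦs against ECs 4 of these 22 were higher and 6 lower, where 33.5% of all genes were called, 17.6% higher and 15.9% lower. In ECs against β cells 8 were higher and 2 lower, where 37.7% were called and 16.5% called higher. Of 12 other AP-1 partners, 11 were tested and 0 were called over time. In MΦs against β cells at No Dox 7 were called higher and 1 lower, where 43.2% of all genes were called and 19.7% called higher. At 1wk WD the counts for these 2 lists in that comparison were 4 higher and 3 lower, and 6 higher and 1 lower. There 46.2% of all genes were called and 19.2% called higher.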

How the data were processed

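RNA of sorted β cells, ECs and MΦs from islets of βVEGF-A mice was amplified and sequenced as paired-end reads by the authors, and per the labels the reads were aligned with TopHat 2.0 to mm9. The deposited values are scores, expression that the authors normalized by the TMM method in Avadis NGS and deposited as whole numbers of 1 or more. The scores of a library summed to 23465985 to 53441769, which is not a depth, so how precise a low score is cannot be stated. The sources give 2 different minimum values for RNA integrity, so RNA quality was not used. The table has 38 columns of samples, of which 32 belong to the samples analysed here and 6 were not used in any step. Groups were taken from the labels (one reads Bets where the others read Beta). The methods call the libraries of a group biological replicates from pooled islets, and the animals in each pool are not given in the sources used here.

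Linear models of log2(score + 1) were made in limma 3.58.1 (R 4.3.3) with moderated variances that follow a trend. A gene entered if its mean score reached 20 in any group of the fit. A fit held the 3 time points of β cells or MΦs, EC at No Dox and 1wk WD, or the 3 cell types at No Dox or at 1wk WD. The interaction fit held 6 groups. This made 16 comparisons, with p-values adjusted over all genes of each. Folds are on the log2(score + 1) scale, which understates changes of low genes. The script was tested on simulated data. All 10 members are named, and from other lists the genes called over time, plus the 5 genes most like the members' mean. The members and lists were chosen with earlier results of these data known. Gene lengths came from GENCODE M1, mm9, where the span of *Egr1* differs from that in the table. *Jun* and *Egr1* also overlap antisense genes there. Promoters came from RefSeq, GRCm38.p6, and the 2 builds were not mixed. *Cebpd* and *Atf7* of the lists were not matched to 1 row.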

Additional observations from a re-analysis of the deposited data

Results flagged for a closer look

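Across the 10 genes and the 6 groups of 4 or 5 libraries, 60 sets of values in all, 0 had a library far enough from the rest to pass Dixon's test on log2(score + 1).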

How the results depend on the processing

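Of 277 counts of members called under another setting, 270 were within 1.5 times the main count, and 7 were not. All 7 left out No Dox β libraries. Leaving out 1 library at a time, members called in ECs against β cells at No Dox ranged from 2 to 5, with 5 without No Dox β replicate 4 (*Junb* and *Ier2* added), and those called for the withdrawal change of ECs minus β cells from 0 to 1, with *Egr3* called without No Dox β replicate 4 (log2 -3.23, limma adjusted p = 0.0227). Leaving out both No Dox β replicates 3 and 4, an alternative chosen after seeing the data, gave 5 in ECs against β cells at No Dox (45.4% of all genes called), 1 (*Egr3*) at 1wk Dox (7.36%) and 1 (*Egr3*) at 1wk WD (8.74%) against No Dox in β cells, 2 (*Egr3* and *Ier2*) for the withdrawal change of ECs minus β cells (16.9%) and 1 (*Egr3*) for that of MΦs minus β cells (14.2%). With fewer libraries the spread within No Dox β cells was that of 2 libraries. Leaving out No Dox MΦ replicates 2 and 4, the MΦ libraries with the highest acinar marker levels, also chosen after seeing the data, moved no count of members by over 1.5 times, while all genes called rose from 340 to 955 (6.41%) in MΦs at 1wk Dox and from 94 to 349 (2.34%) at 1wk WD. Calls lost were *Jun* in MΦs against ECs at 1wk WD, whose log2 value was 0.93 to 0.98 without EC replicate 1 or 4 or MΦ replicate 2, *Fosl1* in ECs against β cells at No Dox without EC replicate 1 (log2 1.55, adjusted p = 0.0511), and *Fosl1* in MΦs against β cells at 1wk WD with a pseudocount of 20 (log2 1.15, adjusted p = 0.062). Calls gained at No Dox, beside those above, were *Jun* in MΦs against ECs with median-of-ratios scaling (log2 1.00) and without EC replicate 3 or MΦ replicate 1 or 2 (1.08 to 1.10), *Junb* in the same comparison without EC replicate 3 (1.03), *Ier2* there with only the 2 groups in the fit (adjusted p = 0.000421), *Fosb* in MΦs against β cells without β replicate 1 or 4 (1.01 and 1.03), and *Junb* in ECs against β cells without EC replicate 4 (1.01). Of 160 gene and comparison values, 103 had an interval that held 0 and were never called, and 48 of them changed sign under some setting, at a log2 value of at most 1.01. The other 57 kept their sign. No comparison had every pair of same-numbered libraries correlated over 0.1, with pairs from -0.486 to 0.414. For MΦs against ECs 3 of 4 pairs were over 0.1 at 1wk WD, and 2 of 4 at No Dox. Replicate 2 had the highest members' mean in β cells, ECs and MΦs at 1wk WD, so pairing by number is not settled. With the replicate block the members called were the same in number, as 3 in ECs and 8 in MΦs against β cells at No Dox, and 0 over time, while all genes called fell from 340 to 3 in MΦs at 1wk Dox, where only 1 number is shared with No Dox, and from 94 to 43 at 1wk WD. The depth behind a score is unknown, so the precision of low scores, such as the 2 to 169 of *Fosl1*, cannot be stated.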
